A study of Saccharomyces cerevisiae with 6 samples.

Results

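The factors that cut, polyadenylate and release RNA polymerase II transcripts, together with the nuclear exosome and its helpers, were followed in yeast cells with an excess of Yra1. The set held 41 genes, named by function, out of 5449 Saccharomyces cerevisiae genes on the arrays. It was drawn up with earlier results of these data known. All 41 were measured, each by 1 probe set. All cells were of strain W303-1A, haploid and of mating type a, and shared the alleles ura3-1, leu2-3,112, ade2-1, his3-11,15, trp1-1 and can1-100. The 2 groups differed in the plasmid. GAL-YRA1 cells, the labels' wild type, carried pRS413 with YRA1 and its intron behind the galactose-inducible GAL1 promoter, and GAL-YRA1Δi cells carried the same plasmid with the intron-less gene. The listed genotype names no change at the chromosomal YRA1 locus, so plasmid and chromosomal transcripts of this gene were read together. Cells were taken 4 hours after a shift from raffinose to 2% galactose, and total RNA of 3 biological replicates of each group was hybridised to 1-colour Affymetrix Yeast Genome 2.0 arrays, 6 in all. Whole cultures were read, so a change in the share of cells that express a gene and a change of its RNA per cell cannot be told apart.

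When RNA polymerase II passes the end of a gene, cleavage factor I and the cleavage and polyadenylation factor (CPF) recognise signals in the RNA, cut it and add the poly(A) tail. The downstream piece is then degraded from its 5' end by the Rat1 exonuclease, the so-called torpedo. Short and non-coding transcripts are instead ended by Nrd1 and Nab3, which hand them to the nuclear exosome and to TRAMP, a complex that adds short tails and unwinds RNA for the exosome. Yra1 meets this machinery directly. It is recruited to the nascent mRNA through Pcf11, a subunit of cleavage factor I, and the comparison asked whether the genes of the machinery differed in expression between cells with the intron-less plasmid and those with the full gene.

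YRA1 itself was higher on every GAL-YRA1Δi array than on any GAL-YRA1 array, at 13.36, 13.22 and 13.44 (log2 signal, replicates 1 to 3) in GAL-YRA1 cells and 14.48, 14.62 and 14.50 in GAL-YRA1Δi cells. The change of YRA1 was 1.20 (SE 0.08, limma adjusted p = 0.0102), and the adjusted p of YRA1 was 0.0802 to 0.112 when replicate 1 or 3 of either group was left out. GAL1, GAL7 and GAL10 gave 14.55 to 14.77 on all arrays, with changes of -0.07, -0.06 and 0.01. Of 6 genes specific to mating type a, 5 gave 11.77 to 14.09. BAR1, for the protease of a cells that breaks down alpha factor, lay at 3.14 to 3.47. These values were below 4.70, the bound under which 95% of the 1747 annotated probe sets taken as Schizosaccharomyces pombe fell. The 4 genes specific to mating type alpha gave 6.35 to 10.48, and their mean per array ran from 8.07 to 8.52 in GAL-YRA1 cells and from 7.72 to 8.24 in GAL-YRA1Δi cells. They did not move alike. MF(ALPHA)1 changed by -1.06 (limma adjusted p = 0.312, or 0.0337 with replicate number as a block) and STE3 by -0.27, while SAG1 changed by 0.18 and MF(ALPHA)2 by 0.06. Their part in the values below was not tested. Replicates 1 and 3 of GAL-YRA1Δi were closer to each other (median difference of 0.06 over all tested probe sets, and 0.05 over the 41 genes) than any other arrays of a group (0.11 to 0.19 over all tested probe sets), and HRP1 and the counts of calls are also given with these 2 averaged as 1 sample. Median signal over the 5498 tested probe sets was 11.16 to 11.18 on the 6 arrays. All 41 genes of the machinery lay far above the S. pombe bound, with means over the arrays of 10.12 to 12.54, and the 21 S. pombe probe sets that carry the name of one of them gave 2.92 to 4.40.

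The machinery as a whole shifted little, and 1 of its genes, HRP1, passed the test. A gene was called where its fold reached 1.5 with an adjusted p under 0.05 (limma, Benjamini-Hochberg over all 5498 probe sets), and 1 of 41 genes was called, against 0.400% of all probe sets (0.255% called as higher). With the stricter p of 0.01 that the study used, 0 of 41 genes and 0.00% of all probe sets were called. The looser 0.05 was taken because earlier results of these data had shown none at 0.01, so it was not set blind. At an adjusted p under 0.10 with no fold minimum 4 genes passed, HRP1, NRD1, PCF11 and SYC1, against 2.40% of all probe sets. An unadjusted p under 0.05 was found for 8 genes, against 16.1% of all probe sets. Of these 8, HRP1, NRD1, PCF11, REF2, PFS2 and PAP2 were higher and SYC1 and CFT2 lower. That is 14.6% of the genes higher, where 9.79% of all probe sets were, and 4.88% lower, where 6.31% were. The groups did not overlap at 9 genes, 22.0% of them against 22.2% of all probe sets, with 7 higher (17.1%, against 13.6%) and 2 lower (4.88%, against 8.57%).

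Small positive values prevailed. The change was positive for 34 of 41 genes (82.9%), against 52.4% of all probe sets, and its median was 0.10 (log2), against 0.01 over all probe sets. It was smaller than 0.2 in size for 32 of the 41 genes. Changes of this size are near the precision of single genes, whose SE had a median of 0.09. The size of the change, with its sign set aside, had a median of 0.12 for these genes and 0.11 over all probe sets. Pairs were taken by replicate number, though numbers 1 and 3 correlated better when crossed. By replicate pair the median change was 0.15 in pair 1, 0.08 in pair 2 and 0.06 in pair 3. The sign was the same in all 3 pairs for 20 genes (48.8%, against 50.6% of all probe sets). All 3 pairs were positive for 17 genes (41.5%, against 27.3%) and negative for 3 (7.32%, against 23.3%).

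**Figure D1:**
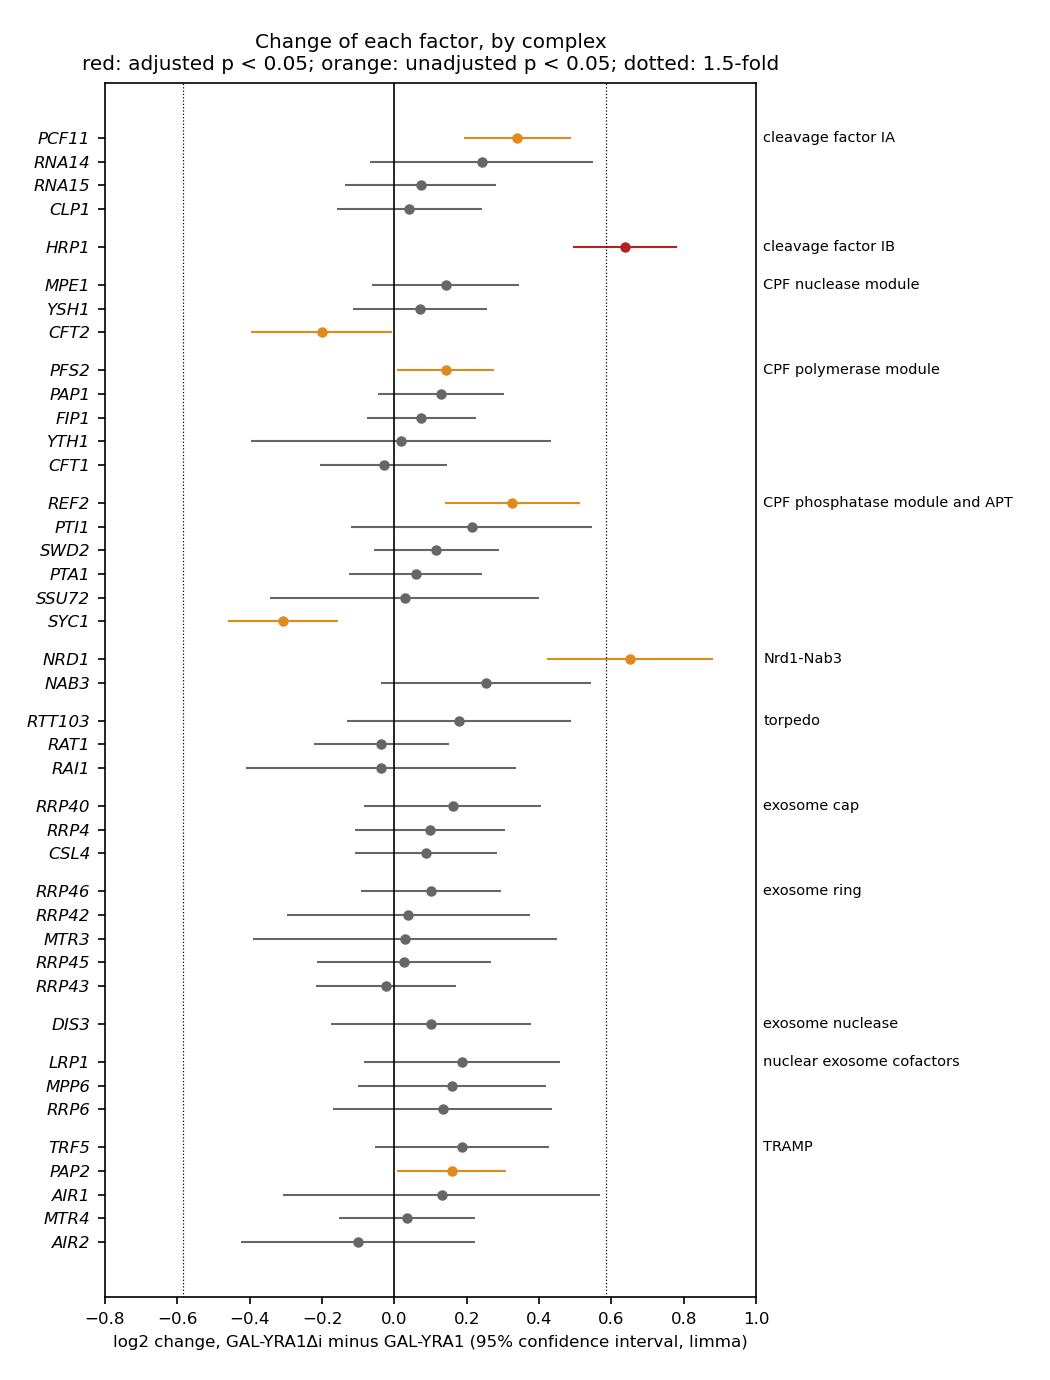
Log2 change of each of the 41 genes (points, GAL-YRA1Δi minus GAL-YRA1) with its 95% confidence interval from limma, ordered by complex, with 3 arrays a group and dotted lines at 1.5-fold. HRP1 (red) is the gene called, orange marks an unadjusted p under 0.05, NRD1 has a change of the same size with a wider interval, SYC1 and CFT2 have intervals below 0, and all exosome subunits have intervals that include 0.

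Cleavage factor I holds the gene that was called, HRP1. Its 5 genes all had positive values, with a median change of 0.24 and a range of 0.04 to 0.64. Hrp1 (also cleavage factor IB) binds the UA-rich efficiency element upstream of the cleavage site and travels with the mRNA to the cytoplasm, and its gene is known for limiting its own expression through early termination of its transcript. HRP1 signal was 12.24, 12.25 and 12.17 on the GAL-YRA1 arrays and 12.87, 12.88 and 12.83 on the GAL-YRA1Δi arrays. The highest GAL-YRA1 array and the lowest GAL-YRA1Δi array were 0.58 apart, and the arrays within a group at most 0.08. HRP1 rose from 12.22 ± 0.04 to 12.86 ± 0.03 (mean ± SD, n = 3), which is 1.56-fold, or 0.64 on the log2 scale with an SE of 0.06 and a 95% confidence interval of 0.49 to 0.78, at an adjusted p of 0.0271. Replicate pairs gave 0.63, 0.63 and 0.66, the same to within 0.03. With 1 array left out the change of HRP1 stayed between 0.61 and 0.65, while its adjusted p rose to 0.181 without GAL-YRA1 replicate 1, 0.144 without GAL-YRA1 replicate 3, 0.173 without GAL-YRA1Δi replicate 1 and 0.165 without GAL-YRA1Δi replicate 3, fits in which 0 of the 5498 probe sets were called, with 487 to 679 at an unadjusted p under 0.05. With GAL-YRA1Δi replicates 1 and 3 averaged it was 0.156, and again 0 probe sets were called.

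The other subunits of cleavage factor I form cleavage factor IA. Pcf11 binds the phosphorylated tail of RNA polymerase II, acts in termination and brings Yra1 to the nascent RNA. PCF11 signal was 10.75, 10.74 and 10.77 in GAL-YRA1 cells and 11.15, 11.03 and 11.11 in GAL-YRA1Δi cells. The groups did not overlap, and the GAL-YRA1 arrays lay within 0.03 of each other. The change of PCF11 was 0.34 (SE 0.06, 95% confidence interval 0.19 to 0.49) with an adjusted p of 0.0822, so it did not pass, and 0.39, 0.29 and 0.33 in the 3 pairs. Rna14 is the scaffold of the factor. RNA14 signal was 10.66, 10.96 and 10.64 in GAL-YRA1 cells and 10.88, 11.18 and 10.92 in GAL-YRA1Δi cells. In both groups replicate 2 was the highest array, and the groups overlapped because of it. The change of RNA14 was 0.24 (SE 0.13, adjusted p = 0.420, or 0.0908 with replicate number as a block), with 0.22, 0.22 and 0.28 in the pairs. RNA15, for an RNA-binding subunit, and CLP1, for an ATP-binding subunit that contacts Pcf11, differed by 0.07 and 0.04 (adjusted p = 0.750 and 0.857), and the sign for CLP1 turned without GAL-YRA1Δi replicate 1.

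**Figure D2:**
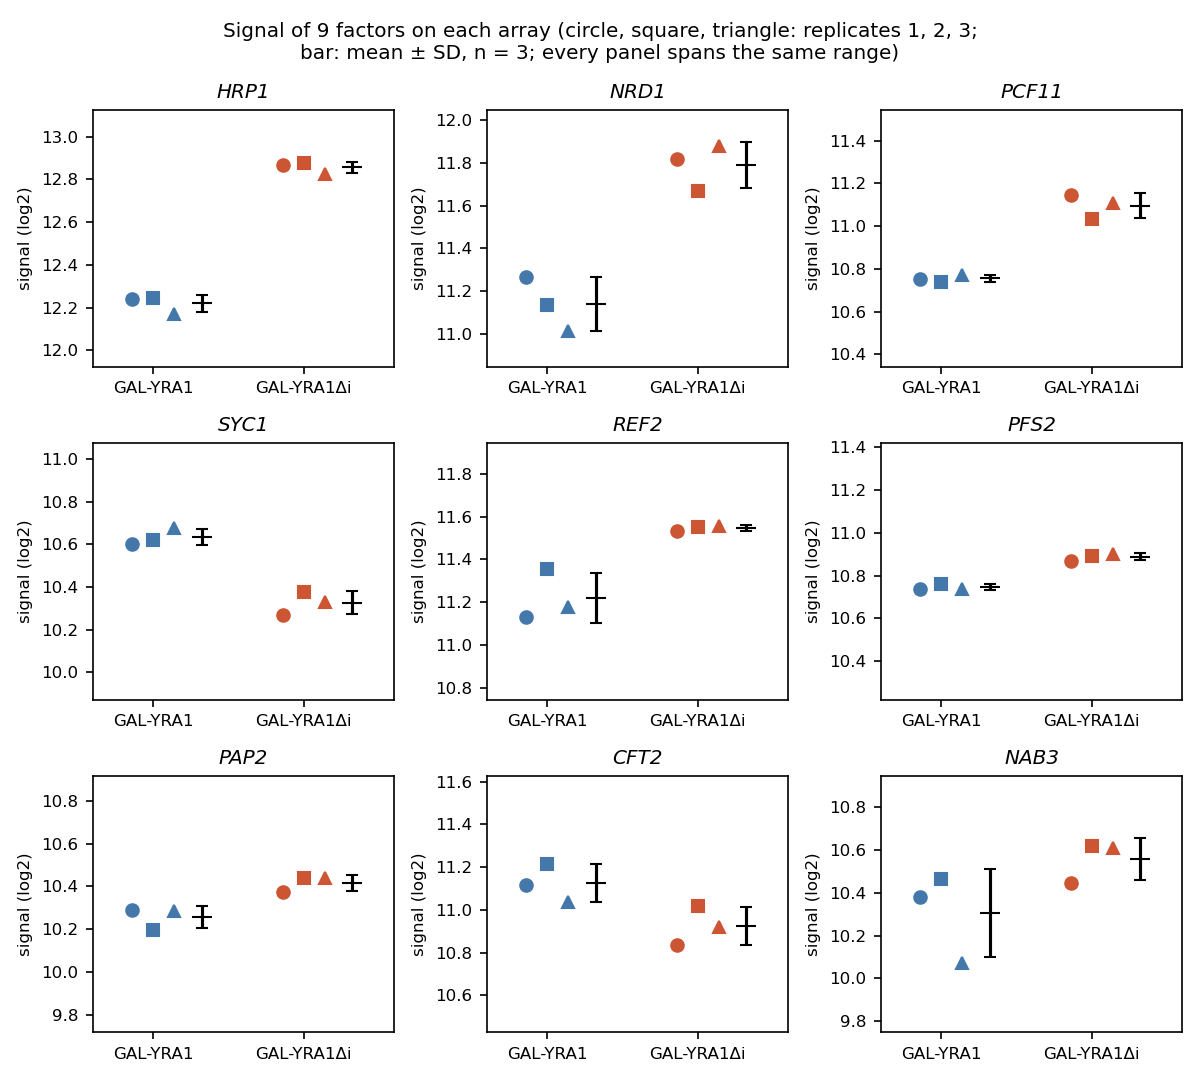
Log2 signal of the 9 genes with the lowest p (panels) on each array, GAL-YRA1 in blue and GAL-YRA1Δi in red, with circles, squares and triangles for replicates 1, 2 and 3 and black bars for mean ± SD (n = 3). Every panel spans the same range. The groups are apart for all but NAB3, and the distance between them is 0.64 for HRP1 and 0.14 for PFS2.

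In CPF, whose 14 genes here had a median change of 0.07, genes had values of both signs, and none passed the test. In its phosphatase module, which also forms a separate complex called APT, REF2 and SYC1 had values of opposite sign. Ref2 brings the phosphatase Glc7 to the complex. REF2 signal was 11.13, 11.35 and 11.18 in GAL-YRA1 cells and 11.53, 11.55 and 11.56 in GAL-YRA1Δi cells. The GAL-YRA1Δi arrays agreed to within 0.03 and all lay above the GAL-YRA1 arrays, of which replicate 2 was the highest. The change of REF2 was 0.33 (SE 0.08, 95% confidence interval 0.14 to 0.51, adjusted p = 0.136, or 0.0806 with the replicate block), with 0.40, 0.20 and 0.38 in the pairs. Syc1 is a small APT subunit that resembles the end of the nuclease Ysh1. SYC1 signal was 10.60, 10.62 and 10.68 in GAL-YRA1 cells and 10.27, 10.38 and 10.33 in GAL-YRA1Δi cells, lower on every GAL-YRA1Δi array. The change of SYC1 was -0.31 (SE 0.06, 95% confidence interval -0.46 to -0.16, adjusted p = 0.0983). The other genes of the module differed less beyond their error. They were PTI1, for an RNA-binding subunit (0.21, SE 0.14), SWD2, for a subunit shared with the histone methylase COMPASS (0.12, SE 0.07), PTA1, for the scaffold of the module (0.06, SE 0.08), and SSU72, for a phosphatase of the polymerase tail (0.03, SE 0.15, with a sign that turned when single arrays were left out).

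The nuclease module of CPF makes the cut. Cft2 is its inactive relative of the nuclease, and CFT2 signal was 11.12, 11.22 and 11.04 in GAL-YRA1 cells against 10.84, 11.02 and 10.92 in GAL-YRA1Δi cells. CFT2 was thus lower on all GAL-YRA1Δi arrays, though by 0.02 at the narrowest point between GAL-YRA1 replicate 3 and GAL-YRA1Δi replicate 2. Its change was -0.20 (SE 0.08, adjusted p = 0.300). Ysh1 is the nuclease itself. YSH1 signal was 10.43, 10.48 and 10.28 in GAL-YRA1 cells and 10.46, 10.42 and 10.52 in GAL-YRA1Δi cells, which overlapped, with a change of 0.07 (SE 0.08, 95% confidence interval -0.11 to 0.26, adjusted p = 0.728). MPE1, for a RING finger subunit that activates the cut, differed by 0.14 (SE 0.08, adjusted p = 0.488).

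The polymerase module adds the tail. Pfs2 is a scaffold protein that ties it to the nuclease, and PFS2 signal was 10.74, 10.76 and 10.74 in GAL-YRA1 cells and 10.87, 10.89 and 10.90 in GAL-YRA1Δi cells. This was a small difference between very tight groups, 0.14 (SE 0.06, adjusted p = 0.284). Pap1 is the poly(A) polymerase. PAP1 signal was 11.38, 11.40 and 11.23 in GAL-YRA1 cells and 11.45, 11.52 and 11.43 in GAL-YRA1Δi cells, with no overlap and a change of 0.13 (SE 0.07, adjusted p = 0.459). FIP1, whose product tethers Pap1, differed by 0.07 (SE 0.06). CFT1, for the large scaffold, and YTH1, for a zinc finger protein that binds RNA, differed by -0.03 and 0.02 (SE 0.07 and 0.17), and neither direction held when single arrays were left out.

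Nrd1 and Nab3 act as a pair, and the gene of the first had a change as large as that of HRP1. Nrd1 reads the polymerase tail and GUA-type motifs in RNA, and, like HRP1, its gene is known for being held down by early termination of its own transcript. NRD1 signal was 11.27, 11.13 and 11.01 in GAL-YRA1 cells and 11.82, 11.67 and 11.88 in GAL-YRA1Δi cells. The lowest GAL-YRA1Δi array, replicate 2, was 0.40 above the highest GAL-YRA1 array. From 11.14 ± 0.13 to 11.79 ± 0.11 (SD, n = 3), the difference for NRD1 was 1.57-fold, or 0.65 on the log2 scale with an SE of 0.09 and a 95% confidence interval of 0.42 to 0.88. Its adjusted p was 0.0573, just outside the threshold. With replicate number as a block the adjusted p was 0.0437 and NRD1 passed, as it did without GAL-YRA1Δi replicate 2 (adjusted p = 0.0273). More of all probe sets were also called in these fits, 1.44% and 2.09% against 0.400%. NRD1 did not pass when replicate 1 or 3 of either group was left out (adjusted p = 0.186 to 0.302). Over all alternatives its adjusted p ran from 0.00301 with array weights to 0.315 with GAL-YRA1Δi replicates 1 and 3 averaged. Pairs gave 0.55, 0.54 and 0.87, the last of them from the lowest GAL-YRA1 array and the highest GAL-YRA1Δi array.

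Nab3 binds UCUU-type motifs beside Nrd1. NAB3 signal was 10.38, 10.46 and 10.07 in GAL-YRA1 cells and 10.45, 10.62 and 10.61 in GAL-YRA1Δi cells. GAL-YRA1Δi replicate 1 lay just under GAL-YRA1 replicate 2, so the groups overlapped, and GAL-YRA1 replicate 3 stood low. The change of NAB3 was 0.25 (SE 0.12, adjusted p = 0.367), and 0.14 without GAL-YRA1 replicate 3, the lowest value with 1 array left out.

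Among the torpedo genes none was called. RTT103, whose product binds the polymerase tail late in the gene, had a change of 0.18 (SE 0.13, adjusted p = 0.591). RAT1, for the exonuclease, and RAI1, for its partner that removes faulty caps, had changes of -0.04 each (SE 0.08 and 0.15, adjusted p = 0.869 and 0.935), and the 95% confidence intervals ran from -0.22 to 0.15 for RAT1 and from -0.41 to 0.34 for RAI1. Both signs turned when single arrays were left out.

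The nuclear exosome, the ring-shaped complex that degrades RNA from its 3' end, showed small values with no gene called. Of its 9 core genes measured here, 8 had a positive change, the median was 0.09, the range was -0.02 to 0.16, and the lowest adjusted p was 0.519. The groups overlapped at all 9. SKI6, for another ring subunit, was outside the set and is given with the neighbouring genes below. Its groups did not overlap, with a change of 0.16 (SE 0.07, adjusted p = 0.355). In the cap of the ring, whose subunits bind RNA, RRP40 differed by 0.16 (SE 0.10), RRP4 by 0.10 (SE 0.09) and CSL4 by 0.09 (SE 0.08). For the inactive ring subunits the changes were 0.10 for RRP46 (SE 0.08), 0.04 for RRP42 (SE 0.14), 0.03 for MTR3 (SE 0.17), 0.03 for RRP45 (SE 0.10) and -0.02 for RRP43 (SE 0.08), and the last 4 of these turned sign when single arrays were left out. DIS3, for the nuclease at the base of the ring, differed by 0.10 (SE 0.11). The median change of the 9 core genes in the set was 0.17 in pair 1, 0.05 in pair 2 and -0.04 in pair 3. Of these 9, RRP4, RRP40 and DIS3 were positive in all 3 pairs.

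Cofactors that work with the exosome in the nucleus gave similar values. LRP1, whose product stabilises Rrp6, differed by 0.19 (SE 0.11, adjusted p = 0.491), MPP6, whose product helps to dock the helicase Mtr4, by 0.16 (SE 0.11, adjusted p = 0.562) and RRP6, for the nuclear exonuclease, by 0.13 (SE 0.12, adjusted p = 0.689). RRP6 was 11.94 and 11.93 on GAL-YRA1Δi replicates 1 and 3 but 11.59 on replicate 2, the lowest of all 6 arrays.

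TRAMP is built in several forms from the helicase Mtr4, 1 of 2 poly(A) polymerases and 1 of 2 zinc knuckle proteins that bind RNA. The genes of its polymerases, PAP2 (also TRF4) and TRF5, had like changes. PAP2 signal was 10.29, 10.20 and 10.29 in GAL-YRA1 cells and 10.37, 10.44 and 10.44 in GAL-YRA1Δi cells, with no overlap and a change of 0.16 (SE 0.06, adjusted p = 0.288). TRF5 signal was 10.12, 9.86 and 10.10 in GAL-YRA1 cells and 10.31, 10.09 and 10.24 in GAL-YRA1Δi cells, a change of 0.19 (SE 0.10, adjusted p = 0.427), with replicate 2 lowest in both groups. The genes of the zinc knuckle proteins had opposite signs within a wide error. AIR1 signal was 10.72, 10.51 and 11.06 in GAL-YRA1 cells and 11.10, 10.62 and 10.97 in GAL-YRA1Δi cells (change 0.13, SE 0.18, adjusted p = 0.797). AIR2 signal was 10.27, 9.94 and 10.28 in GAL-YRA1 cells and 10.13, 9.87 and 10.20 in GAL-YRA1Δi cells (change -0.10, SE 0.13, adjusted p = 0.787). MTR4 differed by 0.03 (SE 0.08, adjusted p = 0.873), a sign that turned without GAL-YRA1Δi replicate 3.

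Genes with related products were then set against each other within each array, as the log2 ratio of their signals, in 4 comparisons. Nrd1 and Nab3 act together. Pap2 and Trf5 are alternatives within TRAMP, as are Air1 and Air2, and Syc1 only resembles the end of Ysh1. The ratio of NRD1 to NAB3 was higher by 0.40 in GAL-YRA1Δi cells, with 0.49, 0.38 and 0.33 in the 3 pairs and no overlap. The ratio of SYC1 to YSH1 was lower on every GAL-YRA1Δi array, with a change of -0.38 and pairs of -0.35, -0.19 and -0.59. For both the two-sided exact permutation p was 0.1, the smallest that 3 arrays against 3 can give, or 0.2 after adjustment over the 4 comparisons, so no threshold could be passed. The ratio of PAP2 to TRF5 differed by -0.03 (exact p = 1) and that of AIR1 to AIR2 by 0.23 (exact p = 0.3, adjusted p = 0.4), and both overlapped between groups.

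For many of these genes replicate number made as large a difference as the plasmid. The mean of the replicate 2 arrays of both groups differed from that of the other 4 arrays by more than the groups differed for 24 of the 41 genes (58.5%, against 60.8% of all probe sets). Both replicate 2 arrays lay outside the range of the other 4 at 18 genes (43.9%, against 45.3% of all probe sets), higher at 8 (19.5%, against 23.2%) and lower at 10 (24.4%, against 22.1%), shares near those of other genes. Those higher in replicate 2 were YTH1 (0.42), SSU72 (0.37), RAI1 (0.33), RNA14 (0.30), RTT103 (0.28), LRP1 (0.21), RRP45 (0.17) and MPE1 (0.16). Those lower were MTR3 (-0.43), AIR1 (-0.40), PTI1 (-0.33), AIR2 (-0.32), RRP42 (-0.29), DIS3 (-0.24), TRF5 (-0.21), CLP1 (-0.14), MTR4 (-0.11) and RAT1 (-0.11). Of the 17 exosome, cofactor and TRAMP genes, 14 had a lower mean in replicate 2, as did 9 of the 24 genes for 3' processing and termination. This split was noticed in the data and not tested, and the share of all probe sets with a lower mean was not counted. For HRP1, PCF11, SYC1 and NRD1 the difference of replicate 2 from the other arrays was 0.03, -0.06, 0.03 and -0.09, smaller in size than their difference between groups. These 4 had the lowest p in a fit on group alone. Such a fit itself favours genes with a small replicate difference, so the comparison is no separate result.

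**Figure D3:**
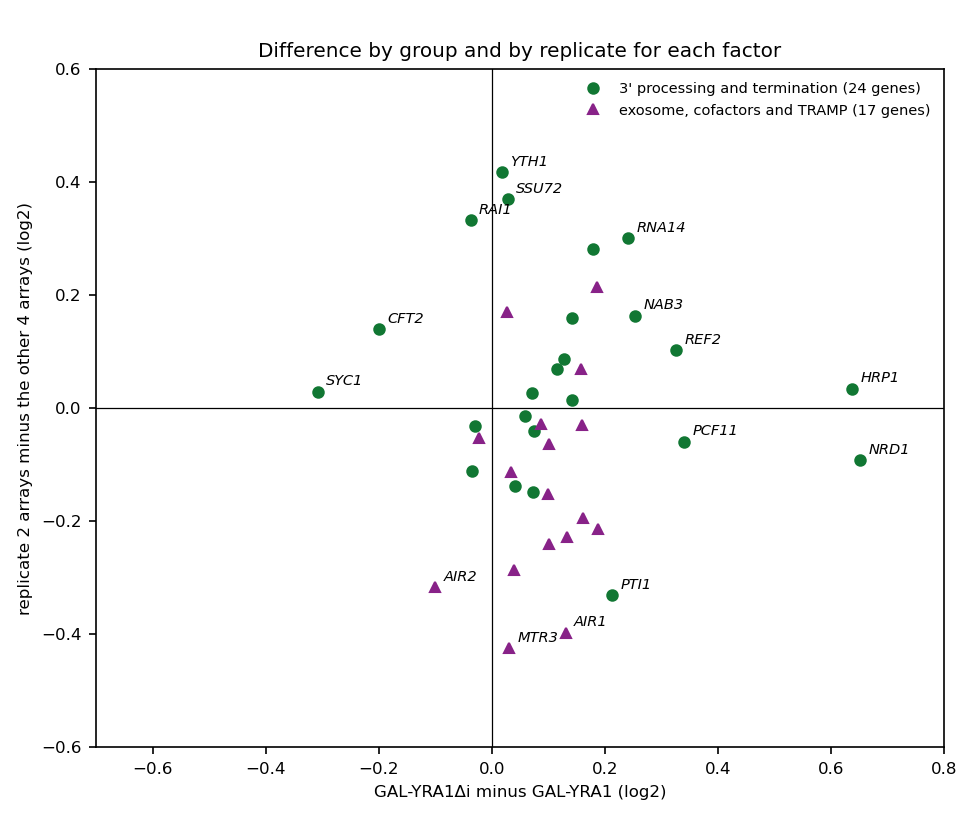
For each of the 41 genes, the log2 difference between groups (horizontal, GAL-YRA1Δi minus GAL-YRA1) against the log2 difference between the 2 replicate 2 arrays and the other 4 arrays (vertical), on equal scales, with circles for 3' processing and termination and triangles for exosome, cofactors and TRAMP. HRP1 and NRD1 lie far along the group axis and near 0 on the replicate axis, while YTH1, SSU72, RAI1, MTR3, AIR1 and AIR2 lie far along the replicate axis.

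**Figure D4:**
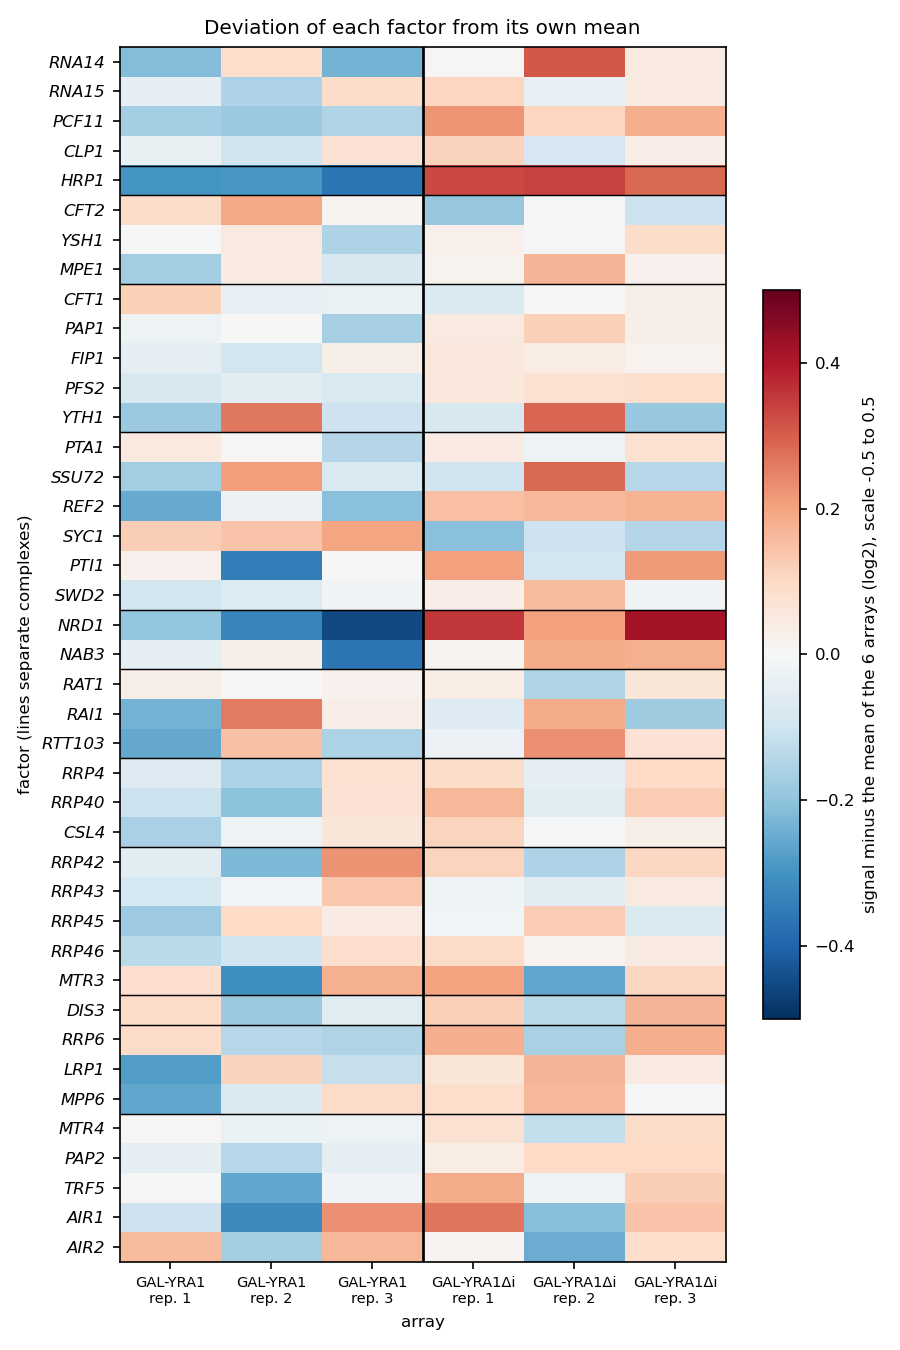
Log2 signal of each gene minus its own mean over the 6 arrays (colour, red above and blue below the mean), with arrays as columns, GAL-YRA1 left and GAL-YRA1Δi right, and lines between complexes. HRP1, NRD1 and PCF11 turn from blue to red between the groups and SYC1 from red to blue, whereas YTH1, SSU72 and MTR3 share a colour on the replicate 2 arrays of both groups.

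Genes that work beside the machinery were then read in the same way. They formed a list of 25 from textbook knowledge, also drawn up with earlier results of these data known. Of these, 23 were measured, and 0 passed the test by the same rule, with 2 higher (8.70%, against 9.79% of all probe sets) and 0 lower (against 6.31%) at an unadjusted p below 0.05. The groups did not overlap at 5 of them, all higher (21.7%, against 13.6% of all probe sets). Their median change was 0.13, against 0.01 over all probe sets, with 19 positive (82.6%, against 52.4%) and 4 negative. NAB2, for a poly(A)-binding protein that limits tail length and acts in export, had 12.17, 12.06 and 12.24 in GAL-YRA1 cells and 12.56, 12.57 and 12.49 in GAL-YRA1Δi cells, a change of 0.39 (adjusted p = 0.0931) with no overlap. SKI7, which links the cytoplasmic exosome to the Ski complex, had 10.27, 10.28 and 10.06 against 10.57, 10.52 and 10.57, a change of 0.35 (adjusted p = 0.127). SKI6, the sixth subunit of the exosome ring, differed by 0.16 with no overlap (adjusted p = 0.355). CTK1, for a kinase of the polymerase tail, differed by 0.17 with overlap (adjusted p = 0.365). NPL3, for another export adaptor, differed by 0.15 with no overlap (adjusted p = 0.401).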

How the data were processed

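The authors deposited a table of log2 signals for 10928 probe sets on 6 Affymetrix Yeast Genome 2.0 arrays, 3 biological replicates of each group, made from the scanner files by RMA (background correction, quantile normalization, summary of probes) per the methods and labels, with limma also named and versions not given in the sources used here. RMA gives all arrays alike distributions and would hide a shift common to most transcripts. The number of arrays limits the precision. Of 7245 annotated probe sets, 5498 matched a gene of the R64 RefSeq table by gene ID (5449 genes) and 1747 were taken as S. pombe.

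Groups were compared on the deposited values with limma 3.58.1 in R 4.3.3 (lmFit, eBayes, group alone, two-sided), with Benjamini-Hochberg adjustment over 5498 probe sets and no filter, and the fit was tested on simulated data. Every gene would be represented by its brightest probe set, but each member had 1. Values on every array are given for the 12 members with the lowest p and for 4 pairs of related genes. Of the neighbouring genes the 5 with the lowest p are named. Members, lists and alternatives were chosen with earlier results of these data known. HRP1, NRD1, PCF11 and REF2 also appear in the study's table of altered genes, as do NAB2 and SKI7 of the neighbouring genes. The values of these genes are therefore not independent support. No DNA or protein sequences were used here.

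After group means were taken out, arrays with the same number correlated at 0.34, 0.69 and 0.30 over the tested probe sets (0.44, 0.88 and 0.21 over the 41 genes). Numbers 1 and 3 correlated better when crossed (0.66 and 0.58), so the correlations bore out the numbering only for replicate 2. The main fit was unpaired. Replicate numbers were used only for the pair values and the blocked fit, which stands beside a result only where the call differs. The alternatives were this block, other normalizations, a filter on dim probe sets, all probe sets, other eBayes settings, array weights, other thresholds and arrays left out or averaged.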

Additional observations from a re-analysis of the deposited data

How the results depend on the processing

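The number of genes called (1, HRP1) was 2 (4.88%) with replicate number as a block, with array weights and with both replicate 2 arrays left out, where 1.44%, 3.95% and 4.20% of all probe sets were called against 0.400% before. It was 0 with GAL-YRA1Δi replicates 1 and 3 averaged, as it was for all probe sets, and 0 to 2 with 1 array left out (0% to 2.09% of all probe sets). At an adjusted p below 0.10 with no fold minimum it was 4, against 2.40% of all probe sets. Where 2 were called, the second was NRD1. PCF11, SYC1 and REF2 stayed under 1.5-fold but had adjusted p-values of 0.00516, 0.00958 and 0.00645 with array weights and 0.0242, 0.0344 and 0.0219 without both replicate 2 arrays, where RNA14 had 0.0485. By the rule of 1.5-fold and an adjusted p under 0.05, the replicate block changed no other call of these genes. At an adjusted p under 0.10 with no fold minimum the block gave 6 genes against 4, as REF2 and RNA14 joined. The share of all probe sets was not counted there. At the study's threshold, 0 became 2 with array weights and 1 without both replicate 2 arrays. The share of all probe sets at that threshold was not counted in these fits. The 8 genes with an unadjusted p below 0.05 became 5 with all probe sets of the table, with an intensity trend and with averaged replicates (12.2%, against 11.0%, 15.8% and 8.88% of all probe sets), 11 with the block (26.8%, against 25.5%), 12 without both replicate 2 arrays (29.3%, against 32.8%), 16 with array weights (39.0%, against 35.9%), and 5 to 9 with 1 array left out (8.86% to 22.6% of all probe sets). The 9 genes without overlap became 24 without both replicate 2 arrays (58.5%, against 64.2% of all probe sets) and 9 to 17 with 1 array left out (25.0% to 48.7% of all probe sets), since fewer arrays overlap more rarely. The median change of the genes ran from 0.08 to 0.14 over the alternatives, against 0.10. The count of neighbouring genes called was 0 in all of them. No member had a second probe set, so that alternative was not run.

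Of 656 values of single genes under the alternatives, 29 changed sign, all in 11 genes whose change was at most 0.042 in size. With 1 array left out these ranged from -0.0563 to 0.0224 for CFT1, -0.0043 to 0.0942 for CLP1, -0.116 to 0.17 for MTR3, -0.0034 to 0.10 for MTR4, -0.17 to 0.083 for RAI1, -0.0746 to 0.0312 for RAT1, -0.0642 to 0.16 for RRP42, -0.0727 to 0.0386 for RRP43, -0.0569 to 0.0833 for RRP45, -0.11 to 0.14 for SSU72 and -0.12 to 0.15 for YTH1. With averaged replicates the values were -0.0386 for MTR3, 0.0133 for RAI1 and -0.0051 for RRP42, with array weights 0.0254 for RAT1, 0.036 for RRP43, -0.017 for SSU72 and -0.0312 for YTH1, and without both replicate 2 arrays 0.0242 for RAT1. The change of GAL10 was -0.0015 with averaged replicates and from -0.0065 to 0.0278 with 1 array left out.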
